A study of Homo sapiens with 8 samples.

Results

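The phagocyte NADPH oxidase is described here through 5 of its subunit genes, CYBB, CYBA, NCF1, NCF4 and RAC2, in 2 human acute myeloid leukaemia cell lines treated with cinobufagin. The 5 genes were chosen by symbol from the deposited table of 25593 rows, and each had 1 row with a value in all 8 libraries. No measured value entered that choice, although earlier results of these data were known when it was made.

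RNA sequencing libraries were made from HL60 and Kasumi-1, both grown in RPMI-1640 with antibiotics. Kasumi-1 received a larger share of fetal bovine serum than HL60, so line and serum cannot be told apart in any comparison between the lines. Each line was kept without drug (0 nM) or with 100 nM cinobufagin, a bufadienolide steroid of toad venom known as an inhibitor of the sodium-potassium pump, for 24 h. The 4 groups held 2 libraries each, called replicate 1 and replicate 2 as numbered in the labels. Nothing in the labels ties the replicates to separate cultures, and the p-values therefore cover the spread among libraries alone, part of which may be technical. Each line is a single long-cultured leukaemia line and stands for no other myeloid cell.

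The oxidase moves electrons from cytosolic NADPH across a membrane to oxygen and so makes superoxide, which phagocytes use against ingested microbes. CYBB (gp91phox, the catalytic chain) and CYBA (p22phox) form the membrane-bound flavocytochrome. NCF1 (p47phox) and NCF4 (p40phox) wait in the cytosol and join it on activation together with the GTPase RAC2. HL60 cells make little oxidase until they are driven to mature towards neutrophils or macrophages, and loss of CYBB, CYBA, NCF1 or NCF4 causes chronic granulomatous disease.

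In GENCODE 29 on GRCh38, which is not the hg19 build that the submitters named, all 5 members are protein-coding genes. CYBB lies on chromosome X (37780011 to 37813461, plus strand), CYBA on chromosome 16 (88643283 to 88651152, minus strand) and NCF1 on chromosome 7 (74773962 to 74789315, plus strand). NCF4 (36860988 to 36878015, plus strand) and RAC2 (37225261 to 37244448, minus strand) are both on chromosome 22. RefSeq promoter entries (GRCh38.p14) matched 3 of the 5 members. All 3 of these genes rose in HL60 and their promoters differ in composition, and a link between these sequences and the response was not tested. Each line gives the 250 bases before the RefSeq start, which lies downstream of the GENCODE start in all 3 genes. Capitals mark the core letters GAGGAA recognised by PU.1, the myeloid factor encoded by SPI1, read here on the opposite strand as TTCCTC. The windows are chrX:37779809-37780058 (plus strand), chr7:74773761-74774010 (plus strand) and chr16:88651054-88651303 (minus strand).
CYBB: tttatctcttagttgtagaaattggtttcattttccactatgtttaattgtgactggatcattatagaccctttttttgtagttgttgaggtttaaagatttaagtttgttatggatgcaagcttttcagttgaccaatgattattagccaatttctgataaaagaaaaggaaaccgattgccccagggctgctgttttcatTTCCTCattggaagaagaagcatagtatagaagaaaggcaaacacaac
NCF1: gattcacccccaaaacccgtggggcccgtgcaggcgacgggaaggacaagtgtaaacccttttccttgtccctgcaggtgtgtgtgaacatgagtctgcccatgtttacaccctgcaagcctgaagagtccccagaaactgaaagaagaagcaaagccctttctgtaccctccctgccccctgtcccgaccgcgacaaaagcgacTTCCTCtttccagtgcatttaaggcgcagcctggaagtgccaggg
CYBA: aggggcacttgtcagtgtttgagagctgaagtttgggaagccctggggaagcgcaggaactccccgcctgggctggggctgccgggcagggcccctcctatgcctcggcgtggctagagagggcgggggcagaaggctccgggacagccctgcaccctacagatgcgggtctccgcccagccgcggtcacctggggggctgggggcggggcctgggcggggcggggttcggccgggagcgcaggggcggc
CYBB held GAGGAA once, 48 to 43 bases before the start, and NCF1 held it once, 45 to 40 bases before the start. No copy lay in the CYBA window, and 23.6% of 35116 RefSeq promoters of this length hold the letters on either strand. CYBB had CCAAT 4 times on either strand, a pentamer found in 32% of these promoters, and 1 of the 4, on the opposite strand, directly followed the capitals. CYBA instead had GGGCGG, the GC box letters of Sp1, 6 times with 2 of them sharing a base, and 42.6% of promoters hold them. CACGTG (6.34% of promoters) and TGANTCA (6.57%) occurred in none of the 3 windows. The GC content was 34% for CYBB, 56.4% for NCF1 and 73.6% for CYBA, against a median of 58% over all promoters. These matches describe letters only; binding was not measured.

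Values are FPKM, which divide a gene's fragments by its transcript length and by the library's fragments, so levels can be compared between genes but are relative to the other RNA of the same library. Between 10623 and 11371 genes reached 1 FPKM in a library. Relative depth, read from 480 low genes, was lowest in treated Kasumi-1 replicate 1 (0.787) and at most 1.06, and no read totals are known. The summed FPKM ran from 594943 to 1445580, and the 3 sums of 1187890 or more were all in a replicate 2; leaving out short RNAs and repeated symbols, a choice made after seeing the data, changed no call among the 5 members. Replicates of a group correlated across genes at r = 0.967 to 0.974 on the log2 scale. The stem cell genes CD34 and KIT, at mean levels of 43.8 to 152 FPKM in Kasumi-1, were listed at 0 and under 1 FPKM in HL60, and both lines expressed MPO and SPI1. Of the markers of other cells, 3 genes had a mean above 20 FPKM in any group: EPCAM in Kasumi-1 (77.9 FPKM without and 74.1 with drug), CD4 in HL60 (80.7 and 17.9) and in Kasumi-1 (32.7 and 40.8), and NKG7 in HL60 (25.7 and 93.0). Summed levels were 6.14 to 8.97 for 15 erythroid and megakaryocyte genes, 37.1 to 116 for 12 T and NK cell genes, 0.505 to 15.3 for 8 B cell genes, and 0.306 to 0.524 in HL60 against 72.7 to 78.5 in Kasumi-1 for 12 fibroblast and epithelial genes. In both libraries of a group 9 or 10 of the 15 erythroid genes were listed at 0, as were 5 of the T and NK genes, 3 to 5 of the B cell genes and 6 to 10 of the fibroblast and epithelial genes.

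Cinobufagin raised 4 of the 5 members in HL60 and lowered 1, whereas in Kasumi-1 it raised CYBA and RAC2 and lowered NCF1. In HL60 the cytosolic organiser NCF1 was 5.20-fold higher and the catalytic chain CYBB 4.04-fold higher with drug, CYBA was 1.85-fold higher, RAC2 was 1.19-fold higher, and NCF4 was 1.65-fold lower. In Kasumi-1 CYBA was 1.48-fold higher and RAC2 1.35-fold higher, and NCF4 and CYBB did not pass the test. NCF1 was 2.71-fold lower there from a level near 1 FPKM (4.92-fold without treated Kasumi-1 replicate 2 and 1.87-fold without treated Kasumi-1 replicate 1). Changes were tested with limma on log2(FPKM + 1) over 12511 genes, and an adjusted p (Benjamini-Hochberg) under 0.05 is called a change. In HL60 73.6% of all tested genes were called, 36.0% higher and 37.6% lower, so 5 of 5 members is a share near what the whole transcriptome gave. In Kasumi-1 26.3% were called, 10.1% higher and 16.2% lower, against 3 of 5 members. The sizes say more than the counts: the median absolute log2 change of all tested genes was 0.57 in HL60 and 0.17 in Kasumi-1. At or above NCF1 and CYBB lay 2.29% and 3.12% of tested genes in HL60, and at or above CYBA 2.88% in Kasumi-1.

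**Figure D1:**
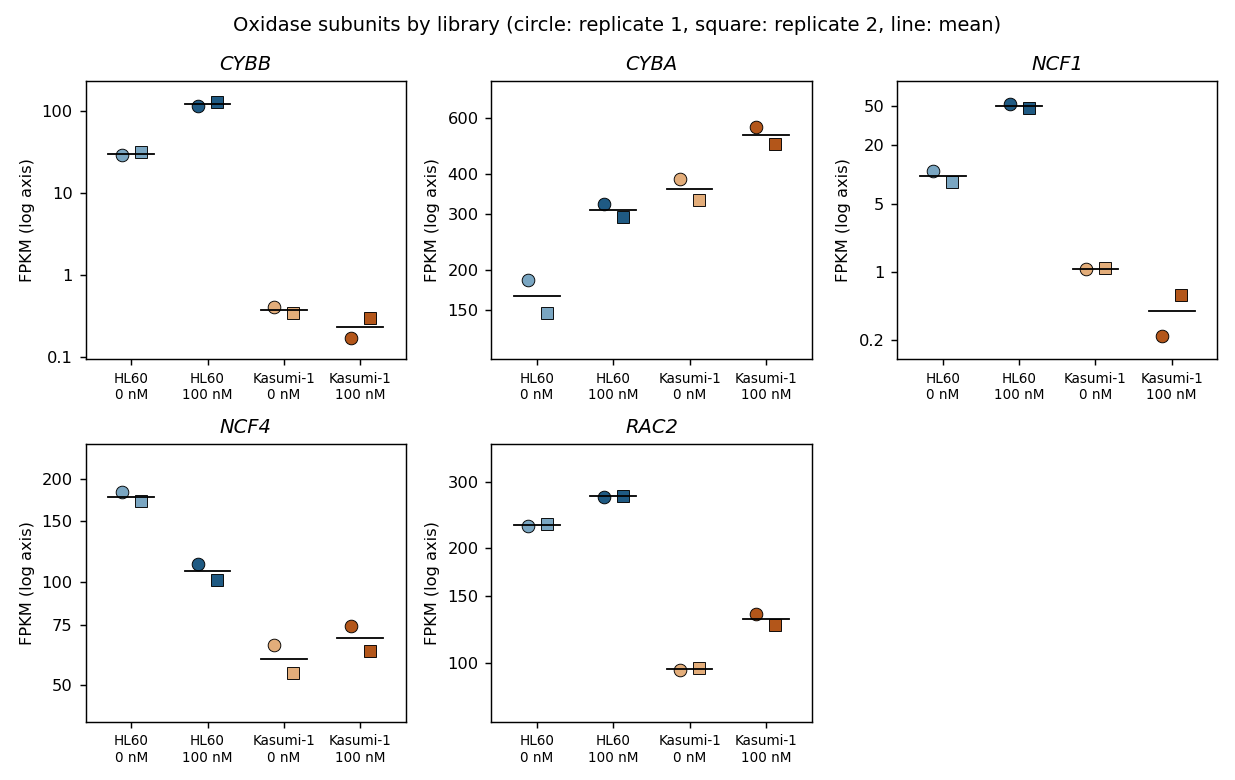
FPKM on log axes of the 5 subunits in each library, by line and dose, with circles for replicate 1, squares for replicate 2 and a line at the mean. CYBB and NCF1 stand above 8 FPKM in all HL60 libraries and at or under 1.08 FPKM in all Kasumi-1 libraries, while CYBA is higher in Kasumi-1.

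CYBB carries the haem groups and the NADPH and flavin sites of the enzyme. Its FPKM in untreated HL60 was 29.2 in replicate 1 and 31.9 in replicate 2, and with drug 117 and 129.7. In Kasumi-1 it was 0.407 and 0.345 without drug and 0.172 and 0.297 with it. Treated HL60 stood above untreated HL60 with no overlap, and every Kasumi-1 library lay below 1 FPKM, where the values without and with drug did not overlap either. The means were 30.5 ± 1.9 and 123.5 ± 8.7 (SD, n = 2 each) in HL60, a log2 change of 1.98 (limma adjusted p = 2.85e-06, SE 0.09). The same change taken within replicate numbers was 1.97 and 1.99. In Kasumi-1 the log2 change was -0.16 (limma adjusted p = 0.226, SE 0.09). CYBB entered the test only through its HL60 libraries, and on the log2(FPKM + 1) scale differences among values this low are understated.

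CYBA is the small membrane partner that stabilises CYBB and anchors NCF1, and it also serves oxidases of other tissues. Untreated HL60 had 186 and 146 FPKM and treated HL60 322 and 294. Untreated Kasumi-1 had 386 and 333 FPKM and treated Kasumi-1 565 and 497. The 4 groups did not overlap, and replicate 1 was above replicate 2 in all 4. In HL60 the means were 166 ± 28 and 308 ± 20 (SD, n = 2 each), a log2 change of 0.90 (limma adjusted p = 0.000985, SE 0.14). In Kasumi-1 they were 359 ± 37 and 531 ± 48, a log2 change of 0.56 (limma adjusted p = 0.0283, SE 0.14). That second call rests on the whole set of libraries: it was lost without either treated HL60 library or any 1 of the 4 Kasumi-1 libraries (limma adjusted p = 0.0505 to 0.126, log2 change 0.46 to 0.67).

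NCF1 is the organiser that, once phosphorylated, bridges the cytosolic subunits to CYBA. Its FPKM was 10.8 and 8.36 in untreated HL60 and 52.6 and 47.2 with drug. It was 1.07 and 1.08 in untreated Kasumi-1 and 0.218 and 0.573 with drug. The HL60 libraries separated cleanly by dose, and so did the Kasumi-1 libraries, in the opposite direction and at or near 1 FPKM. In HL60 the means were 9.59 ± 1.7 and 49.9 ± 3.9 (SD, n = 2 each), a log2 change of 2.27 (limma adjusted p = 2.03e-05, SE 0.16). In Kasumi-1 they were 1.07 ± 0.01 and 0.396 ± 0.25, a log2 change of -0.58 (limma adjusted p = 0.0376, SE 0.16). The Kasumi-1 call was lost without either treated HL60 library, either untreated Kasumi-1 library or treated Kasumi-1 replicate 1 (limma adjusted p = 0.0644 to 0.144, log2 change -0.59 to -0.40).

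The value of NCF1 is uncertain because 2 near-identical copies, NCF1B and NCF1C, have rows of their own. Of all 50-base windows of the NCF1 transcript (1396 bases, GENCODE 29), 84.5% also occur in a transcript of NCF1B or NCF1C, and 64.5% of its 100-base windows do, so a short read often fits more than 1 of the 3. NCF1 took a mean of 53.0% of the summed FPKM of the 3 genes in untreated HL60 and 54.4% with drug. In Kasumi-1 the means were 56.3% without drug (51.0% and 61.6% by replicate) and 59.2% with it (45.8% and 72.7%). These Kasumi-1 shares come from values near or under 1 FPKM. In HL60 both copies rose with it, by log2 changes of 2.07 for NCF1B and 2.07 for NCF1C (limma adjusted p = 1.13e-05 and 2.8e-06). In Kasumi-1 the copies were at 0.386 and 0.463 FPKM without drug and 0.111 and 0.127 with it, where NCF1C fell (log2 change -0.37, limma adjusted p = 0.0265) and NCF1B did not pass (-0.32, adjusted p = 0.109). The call for NCF1C was lost without untreated Kasumi-1 replicate 1 or either treated Kasumi-1 library (adjusted p = 0.0875 to 0.114). RAC2 shared none of its windows with RAC1 or RAC3. In GENCODE 29, NCF4 overlaps NCF4-AS1 on the opposite strand and CYBB overlaps AF241726.2 on its own strand, and the strand setting of the quantification is not known here.

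NCF4 is the regulatory subunit that binds phosphatidylinositol 3-phosphate on phagosomes. It had 183 and 172 FPKM in untreated HL60 and 113 and 102 with drug. Kasumi-1 had 65.5 and 54.2 FPKM without drug and 74.4 and 63.0 with it. The HL60 groups did not overlap and the treated libraries were the lower ones, while the Kasumi-1 groups overlapped. Replicate 1 exceeded replicate 2 in all 4 groups, as for CYBA. In HL60 the means were 177 ± 7.9 and 107 ± 8.2 (SD, n = 2 each), a log2 change of -0.72 (limma adjusted p = 0.00141, SE 0.12). In Kasumi-1 they were 59.8 ± 8.0 and 68.7 ± 8.1, a log2 change of 0.20 (limma adjusted p = 0.268, SE 0.12).

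RAC2 is the GTPase that blood cells use to switch the oxidase on. It was at 229 and 232 FPKM in untreated HL60 and 273 and 276 with drug. Kasumi-1 had 95.7 and 97.0 FPKM without drug and 134 and 126 with it. Replicates were close, the 4 groups did not overlap, and both lines were higher with drug. The HL60 means of 230.3 ± 2.1 and 274 ± 1.6 (SD, n = 2 each) gave a log2 change of 0.25 (limma adjusted p = 0.00289, SE 0.05), which is below the median absolute change of all genes in that line. The Kasumi-1 means of 96.3 ± 0.88 and 130.2 ± 6.1 gave a log2 change of 0.43 (limma adjusted p = 0.00286, SE 0.05), and 5.24% of tested genes lay at or above it.

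Of the 6 genes listed as partners (RAC1, RAP1A, C17orf62, HVCN1 and the 2 NCF1 copies), 5 rose and 1 fell in HL60, with a median log2 change of 0.89 against -0.01 for all tested genes. In Kasumi-1 1 rose, 1 fell and 4 did not pass, with a median of -0.06 against -0.04. These are 100% and 33.3% of the 6, where 73.6% and 26.3% of all tested genes were called. NCF1B and NCF1C are copies of a member rather than partners of it, share most of their sequence with NCF1 and were tested only through their HL60 levels. Of the other 4, 3 rose and 1 fell in HL60 (median 0.58), and 1 rose and 0 fell in Kasumi-1 (median 0.06). RAC1, the widely expressed relative of RAC2, went from 54.2 ± 2.5 to 89.95 ± 0.68 FPKM in HL60 (log2 change 0.72, limma adjusted p = 3.21e-05) and from 43.8 to 45.1 in Kasumi-1 (0.04, adjusted p = 0.627). RAP1A, a small GTPase found with the flavocytochrome, rose in HL60 from 28.4 to 59.9 FPKM (log2 change 1.05, limma adjusted p = 1.94e-05) and was at 32.3 and 34.2 in Kasumi-1 (adjusted p = 0.448). C17orf62 (CYBC1), the chaperone that CYBB and CYBA need to mature, fell in HL60 from 39.7 to 30.3 FPKM (log2 change -0.38, limma adjusted p = 0.00567). HVCN1, the proton channel that balances the charge the oxidase moves, rose by 0.44 in HL60 and 0.50 in Kasumi-1 (limma adjusted p = 0.0263 and 0.0426). Its HL60 call was lost without untreated or treated replicate 2 of HL60 (adjusted p = 0.121 and 0.146) and its Kasumi-1 call without any 1 of 7 libraries, all but treated Kasumi-1 replicate 2 (0.0564 to 0.176). Of 10 genes of the other NADPH oxidases, only NOXA1 reached the test, and it was called in neither line (log2 change -0.14 and 0.34, limma adjusted p = 0.468 and 0.183).

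**Figure D2:**
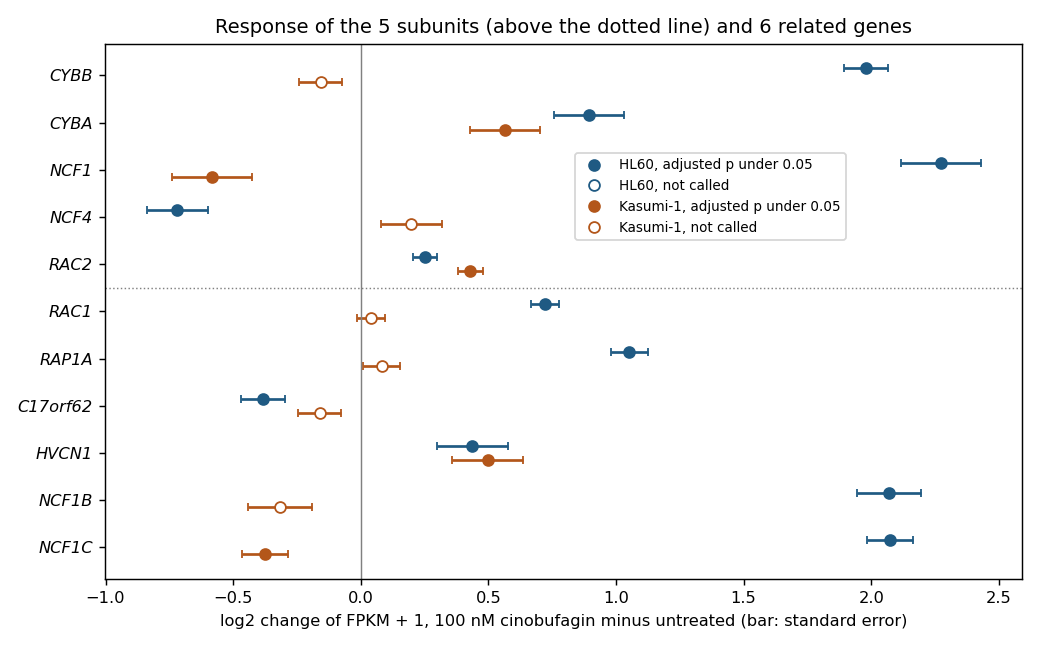
Log2 change of FPKM + 1 with 100 nM cinobufagin for the 5 subunits, above the dotted line, and 6 related genes; bars are standard errors and filled points have an adjusted p under 0.05. CYBB, NCF1 and the NCF1 copies lie near 2 or above in HL60 and within 0.6 of 0 in Kasumi-1, and NCF4 lies to the left of 0 in HL60.

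The response differed between the lines for 3 of the 5 members, against 63.1% of all tested genes called for that difference (30.1% above 0 and 33.1% below). Taken as Kasumi-1 minus HL60 on the log2 scale, it was -2.14 for CYBB (limma adjusted p = 2.54e-05, SE 0.12), -2.86 for NCF1 (adjusted p = 8.15e-05, SE 0.22) and 0.92 for NCF4 (adjusted p = 0.00331, SE 0.17). The estimated changes of CYBB, NCF1 and NCF4 had opposite signs in the lines, but only for NCF1 were both called. CYBB could be tested only through its HL60 level, so its difference adds nothing to the count of 3. CYBA differed by -0.33 (limma adjusted p = 0.178, SE 0.19) and RAC2 by 0.18 (adjusted p = 0.0586, SE 0.07), which does not show that these genes responded alike. With a term for the replicate number added to the fit, both differences were called (limma adjusted p = 0.0107 and 0.0287). The CYBA difference was called without untreated HL60 replicate 1 (limma adjusted p = 0.0485) and that of RAC2 without treated Kasumi-1 replicate 2 (0.0323). Of the 6 genes listed as partners, 4 were called for the difference, among them RAP1A at -0.97 and RAC1 at -0.68 (limma adjusted p = 0.000282 and 0.000413). The other 2 called, NCF1B and NCF1C, were under 1 FPKM in every Kasumi-1 library, were tested only through HL60 and share sequence with NCF1, so they add nothing to its value.

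**Figure D3:**
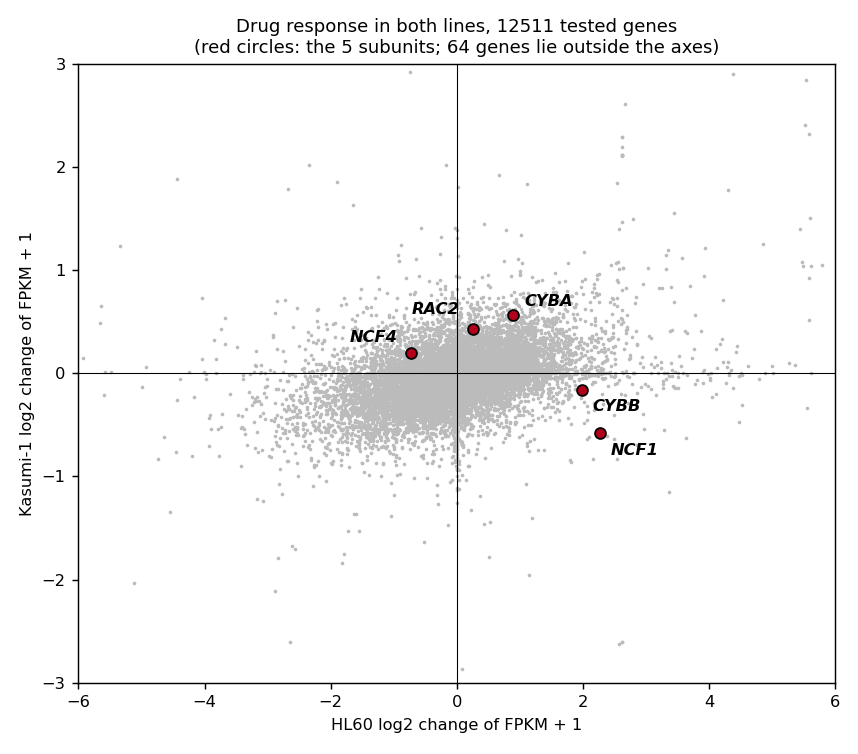
Log2 change of FPKM + 1 in HL60 (x axis) and Kasumi-1 (y axis) for 12511 tested genes in grey, with the 5 subunits as red circles; 64 genes lie outside the axes. CYBA and RAC2 lie at the upper right, CYBB and NCF1 at the lower right and NCF4 at the upper left.

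The lines differed in every member before any drug was added, as 69.7% of all tested genes did (35.9% higher and 33.8% lower in Kasumi-1). These comparisons use the same untreated libraries as the responses. CYBB was 81.2-fold and NCF1 8.93-fold higher in HL60, NCF4 was 2.96-fold and RAC2 2.39-fold higher there, and CYBA was 2.16-fold higher in Kasumi-1. As log2 differences, Kasumi-1 minus HL60, these were -4.52, -2.34, -1.56, -1.25 and 1.11 (limma adjusted p = 1.02e-07, 1.81e-05, 3.44e-05, 1.49e-06 and 0.00037). CYBB could be tested only because it is high in HL60, so its call adds nothing to the count. With drug 82.2% of tested genes differed between the lines (42.0% higher and 40.2% lower in Kasumi-1), and so did the 5 members, of which CYBB again adds nothing. CYBB was then 526-fold and NCF1 126-fold higher in HL60. For CYBB, under 1 FPKM in every Kasumi-1 library, the gap was 717-fold without treated Kasumi-1 replicate 2 and 415-fold without treated Kasumi-1 replicate 1. For NCF1 the gap was 229-fold without treated Kasumi-1 replicate 2 and 87.1-fold without treated Kasumi-1 replicate 1. The NCF4 and RAC2 gaps were 1.56-fold and 2.11-fold, and CYBA was 1.72-fold higher in Kasumi-1.

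In order of level, CYBB and NCF1 ran from treated HL60 through untreated HL60 and untreated Kasumi-1 to treated Kasumi-1, and RAC2 from treated and untreated HL60 to treated and then untreated Kasumi-1. NCF4 ran from untreated through treated HL60 to Kasumi-1, whose treated and untreated groups differed by less than their summed SDs. CYBA ran from treated and untreated Kasumi-1 to treated and untreated HL60, and its middle pair, 359 and 308 FPKM, also differed by less than the summed SDs although the libraries did not overlap. Among members of 1 library group, RAC2 had the highest level in untreated HL60 (230.3 FPKM, above 97.4% of tested genes or level with them) and CYBA in the other 3 groups. NCF1 was the lowest of the 5 in untreated HL60, at or above 52.2% of tested genes, and moved to 86.9% with drug. CYBB moved from 80% to 94.9% there and was at 5.15% and 4.44% in Kasumi-1.

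The balance between partners shifted with these changes. CYBA over CYBB, a pair that binds one to one in the enzyme, was 6.37 and 4.59 in untreated HL60 and 2.75 and 2.27 with drug. In Kasumi-1 it was 948 and 965 without drug and 3282 and 1671 with it, so nearly all of the flavocytochrome message there was for the small chain. CYBB, the divisor, was under 1 FPKM in every Kasumi-1 library and its change there was not called, so the size of this ratio and its shift with drug there are uncertain. NCF4 over NCF1, both cytosolic subunits, was 16.9 and 20.5 in untreated HL60 and 2.15 and 2.15 with drug, beside 61.4 and 50.1 in untreated and 341 and 109.9 in treated Kasumi-1. The 4 groups did not overlap in this ratio, which was lower with drug in HL60 and higher with drug in Kasumi-1, and it carries the uncertainty of NCF1. RAC2 over RAC1 was 4.36 and 4.14 in untreated HL60 and 3.05 and 3.05 with drug, and 2.27 and 2.14 in untreated Kasumi-1 and 3.01 and 2.77 with drug, so the ratio was lower with drug in HL60 and higher with drug in Kasumi-1. These are ratios of RNA levels, for which no test was run.

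**Figure D4:**
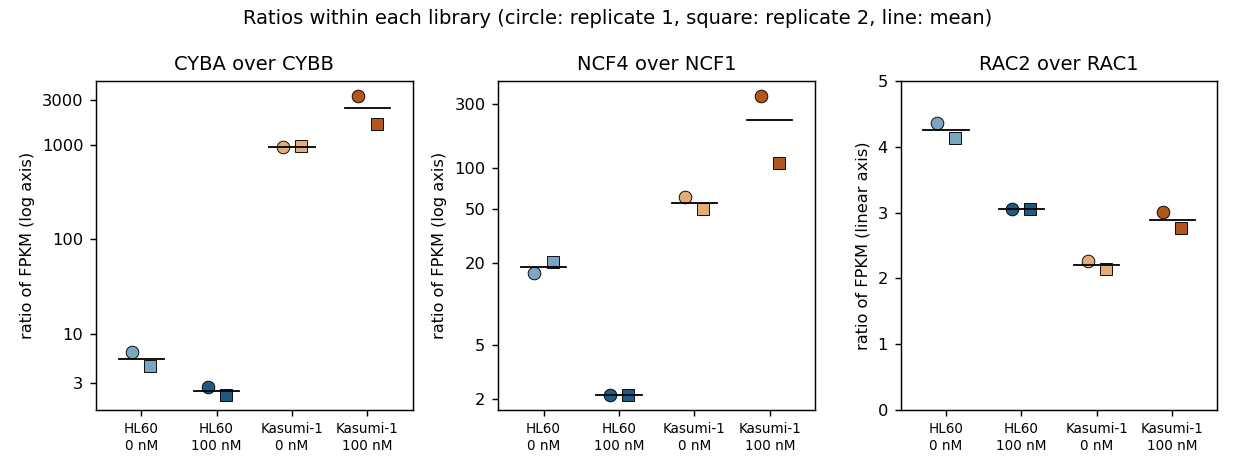
Ratios of FPKM within each library for CYBA over CYBB and NCF4 over NCF1 (log axes) and RAC2 over RAC1 (linear axis), with circles for replicate 1, squares for replicate 2 and a line at the mean. NCF4 over NCF1 is 2.15 in both treated HL60 libraries and 341 and 109.9 in those of treated Kasumi-1.

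Genes that act upstream of the assembled oxidase were called about as often as all genes. Of 30 genes for its activation (kinases, phospholipases, exchange factors and S100 proteins), 28 were tested: in HL60 15 rose and 6 fell (median log2 change 0.28), and in Kasumi-1 6 rose and 2 fell (median 0.04). These are 75% and 28.6% of the 28, against 73.6% and 26.3% of all tested genes. S100A9 and S100A8, the calcium-binding pair that delivers arachidonic acid to the oxidase, rose in HL60 by log2 changes of 2.32 and 2.14 (limma adjusted p = 8.46e-05 and 0.0026), and the S100A8 call was lost with a pseudocount of 0.1 (log2 change 2.15, adjusted p = 0.135). They reached 2935 ± 46 and 1311 ± 133 FPKM (SD, n = 2) there and were under 8 FPKM in every Kasumi-1 library. PIK3R5, a regulatory subunit of PI3-kinase gamma, rose from 2.33 to 11.5 FPKM in HL60 (log2 change 1.90, limma adjusted p = 1.08e-06). PRKCB, a kinase that phosphorylates NCF1, rose in both lines, by 0.97 in HL60 and 0.41 in Kasumi-1 (limma adjusted p = 1.12e-05 and 0.00508). Falling in HL60 were PLCB2, a phospholipase downstream of chemoattractant receptors, by 1.02 on the log2 scale and PAK1, another NCF1 kinase, by 0.81 (limma adjusted p = 0.000155 and 2.73e-05). PAK1 rose in Kasumi-1 (log2 change 0.28, adjusted p = 0.0188), a call that was lost without any 1 of the 4 Kasumi-1 libraries (0.0565 to 0.0892).

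Of 26 listed transcription factors known to act on these genes, 23 were tested: in HL60 14 rose and 6 fell (median log2 change 0.48), and in Kasumi-1 9 rose, 1 (GATA2, -0.36) fell and 13 did not pass (median 0.16). The shares called were 87% and 43.5%, against 73.6% and 26.3% of all tested genes. GATA1 was tested only through HL60, and HOXA10 and IRF8 only through Kasumi-1. Of the 20 factors that passed through both lines, 14 rose and 4 fell in HL60, and 9 rose and 1 fell in Kasumi-1. SPI1, which encodes PU.1, had 150 and 149 FPKM in untreated HL60 and 254 and 244 with drug, and 81.5 and 75.2 in untreated Kasumi-1 and 133 and 131 with drug. Its log2 change was 0.74 in both lines (limma adjusted p = 2.52e-05 in HL60 and 0.00116 in Kasumi-1, SE 0.05 each), with a difference between lines of 0.01 (adjusted p = 0.941, SE 0.08). FOS and JUN, which form AP-1, rose in HL60 by log2 changes of 4.21 and 3.44 and in Kasumi-1 by 0.71 and 0.69 (limma adjusted p = 3.79e-07, 1.8e-07, 0.00539 and 0.00187). IRF2, an interferon regulatory factor, rose from 6.73 to 33.95 FPKM in HL60 (log2 change 2.18, limma adjusted p = 4.7e-07). CEBPA, the factor of granulocytic commitment, fell there from 141 to 31.2 FPKM (log2 change -2.15, limma adjusted p = 3.42e-07) and was at 3.84 and 3.83 in Kasumi-1. CEBPE, a factor of late granulocytes, fell in HL60 by 0.57 on the log2 scale and rose in Kasumi-1 by 0.53 (limma adjusted p = 0.00184 and 0.012; 0.0599 for Kasumi-1 without its treated replicate 1). CEBPD rose in Kasumi-1 by 0.87 (limma adjusted p = 0.00595).

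Genes listed for the supply of NADPH, the fuel of the oxidase, were mostly lower in HL60, but not all of them make NADPH themselves. Those that do not are RPIA, PGLS, TALDO1, TKT and SHMT2, with HL60 log2 changes of -1.79, -1.76, -1.02, -0.62 and -0.39, and RPE, which was not called. Most of the genes that fell were thus of this kind, and the others were IDH1 and MTHFD1. The counts are therefore not a measure of NADPH production. Of the 11 described, all tested, 2 rose and 7 fell in HL60 (median log2 change -0.62), while in Kasumi-1 1 rose and 4 fell (median -0.20). These are 81.8% and 45.5% of the 11, against 73.6% and 26.3% of all tested genes. The rises in HL60 were ME1, cytosolic malic enzyme, which was tested only through its HL60 level, from 1.77 to 8.48 FPKM (log2 change 1.77, limma adjusted p = 7.9e-06), and PGD, a dehydrogenase of the pentose phosphate pathway, by 0.26 (adjusted p = 0.00187). PGLS, the lactonase of that pathway, fell by 1.76 on the log2 scale and IDH1, cytosolic isocitrate dehydrogenase, by 2.22 (limma adjusted p = 4.49e-06 and 2.22e-06). The rise in Kasumi-1 was H6PD, an NADPH-making enzyme of the endoplasmic reticulum (log2 change 0.55, limma adjusted p = 0.0415), a call lost without any 1 of 6 libraries, all but those of treated HL60 (0.0542 to 0.168).

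Of 23 genes that remove superoxide and peroxide, 21 were tested: 7 rose and 9 fell in HL60 (median log2 change -0.10), and 2 rose and 10 fell in Kasumi-1 (median -0.21). The shares called were 76.2% and 57.1%, against 73.6% and 26.3% of all tested genes. CAT (catalase) went from 173 to 55.3 FPKM in HL60 and from 86.6 to 103 in Kasumi-1, log2 changes of -1.63 and 0.24 (limma adjusted p = 4.18e-07 and 0.0083). SOD1, the cytosolic superoxide dismutase, fell in both lines, by 1.38 and 0.42 on the log2 scale (limma adjusted p = 1.85e-05 and 0.0216). In Kasumi-1 the SOD1 call was lost without untreated replicate 1 (adjusted p = 0.1) or treated replicate 2 (0.094). PRDX1, a peroxiredoxin, also fell in both, by 1.17 and 0.87 (adjusted p = 2.71e-05 and 0.00225), and so did SRXN1, the sulfiredoxin that repairs it, by 0.99 and 0.85 (2.26e-05 and 0.00154). PRDX2 fell by 1.59 in HL60 and 0.24 in Kasumi-1 (limma adjusted p = 1.88e-06 and 0.0318), the latter lost without any 1 of 6 libraries, all but those of treated HL60 (0.0603 to 0.136). GCLM, a subunit of the first enzyme of glutathione synthesis, rose by 0.99 in HL60 and fell by 0.62 in Kasumi-1 (limma adjusted p = 9.5e-05 and 0.00664). PRDX4 rose in Kasumi-1 by 0.35 (limma adjusted p = 0.0398), a call lost without any 1 of 7 libraries, all but treated Kasumi-1 replicate 2 (0.0513 to 0.167), and GSR, glutathione reductase, fell there by 0.68 (0.0072).

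**Figure D5:**
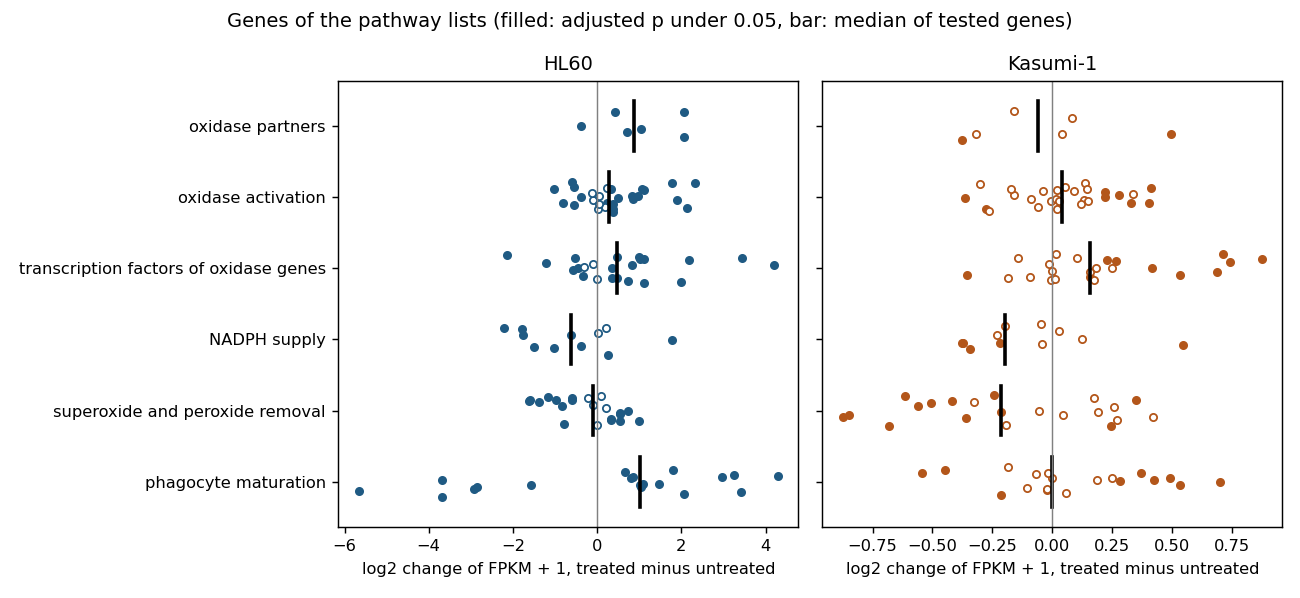
Log2 change of FPKM + 1 of each tested gene of 6 pathway lists in HL60 (left) and Kasumi-1 (right, narrower axis), with filled points for an adjusted p under 0.05 and a bar at the list's median. The medians in HL60 run from -0.62 for NADPH supply to 1.02 for phagocyte maturation, of whose 19 genes 9 were tested only through HL60.

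Genes listed for phagocyte maturation moved both ways in HL60. The list mixes surface receptors with granule genes, which need not move the same way as cells mature, so its counts and medians do not measure maturation. Of 24 listed, 19 were tested: 13 rose and 6 fell in HL60 (median log2 change 1.02), and 6 rose and 3 fell in Kasumi-1 (median 0), where 73.6% and 26.3% of all tested genes were called. The filter fixes part of that count, since 9 of the 19 passed it only through HL60 and 3 of those (FCGR2B, FCGR3B and MMP9) only through treated HL60. Of the 10 that passed through both lines, 4 rose and 6 fell in HL60, with a median of -2.21. The 6 that fell were CSF3R and the granule genes AZU1, CTSG, ELANE, MPO and PRTN3. C5AR1 and FPR1, receptors for chemoattractants, and CD14, the endotoxin co-receptor, rose in HL60 by log2 changes of 4.29, 3.26 and 3.42 (limma adjusted p = 4.02e-07, 2.82e-07 and 3.47e-07). They were tested only through HL60, being under 0.3 FPKM in Kasumi-1 in all 4 libraries. The granule genes MPO and PRTN3 fell in HL60 from 3327 to 259.8 and from 539 to 9.77 FPKM (log2 changes -3.68 and -5.65, limma adjusted p = 2.99e-07 and 1.28e-07). In Kasumi-1 they were at 6056 and 2203 FPKM without drug and rose by 0.29 and 0.49 (limma adjusted p = 0.0474 and 0.00694), and the MPO call was lost without any 1 library (0.0661 to 0.152). The summed level of 15 myeloid line markers was 5750 to 5796 FPKM in untreated and 1718 to 1923 in treated HL60, and 10874 to 11150 in untreated and 14036 to 14462 in treated Kasumi-1. MPO alone was the largest part of the untreated sums in both lines, so they do not describe the markers evenly. Of the 15 markers, 10 fell and 3 (ITGAM, SPI1 and LYZ) rose in HL60, where 73.6% of all tested genes were called. ITGAM passed the filter only through HL60, and CD34, KIT and RUNX1T1 only through Kasumi-1. Of the 11 markers that passed through both lines, 2 rose and 9 fell in HL60. In libraries of whole cultures, more oxidase message per cell and more cells that hold it cannot be told apart, and the part of these shifts in the oxidase values was not tested.

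Across all 8 libraries the members did not follow 1 profile. On log2(FPKM + 1), Pearson's r among CYBB, NCF1, NCF4 and RAC2 ran from 0.64 (NCF1 and NCF4) to 0.98 (CYBB and NCF1). CYBA correlated negatively with each of them, from -0.53 with NCF1 to -0.84 with NCF4, and at -0.63 with CYBB. These are descriptions over 8 libraries in 4 groups. Likeness to each member was measured as the root mean square difference of centred log2(FPKM + 1) over the 8 libraries, among 7935 genes with a mean of at least 5 FPKM. Nearest to CYBB were CHI3L1 (0.24), a secreted chitinase-like protein, ALOX5AP (0.27), which helps make leukotrienes, and CAPG (0.27), an actin capping protein. Nearest to NCF1 were CDA (0.25), cytidine deaminase, PADI4 (0.26), the histone-citrullinating enzyme of neutrophils, and TRIB1 (0.29), a pseudokinase. CYBA was closest to MIB2 (0.10), C10orf11 (0.13) and KIN (0.14), and RAC2 to ANKRD13D (0.06), TBRG1 (0.09) and PLXNB2 (0.11). NCF4 was closest to RPL21P28 (0.06), RPL21 (0.07) and POLR3K (0.09), of which the first 2, a ribosomal protein gene and a copy of it, can share reads. Ranking by Pearson's r instead gave other names, with 2 of 3 shared for NCF4, 1 for CYBA and 0 for the rest.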

How the data were processed

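RNA from HL60 and Kasumi-1 was collected with an RNeasy kit and made into libraries with a TruSeq Stranded mRNA kit, per the labels' protocols. The authors deposited 1 table of FPKM values with 25593 rows and 8 library columns, all of which were used. The submitters' processing notes name Cufflinks 2.2.1, HISAT2 2.1.0, bcl2fastq 2.20.0 and hg19; for annotation, strand setting and filters, nothing is given in the sources used here. No read counts were at hand, so values carry no counting interval and a listed 0 may be a failed estimate.

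Tests used log2(FPKM + 1). In them, limma 3.58.1 in R 4.3.3 was fitted to all 8 libraries with 1 mean per group, 4 residual degrees of freedom and a variance trend, on the 12511 genes that reached 1 FPKM in 2 or more libraries (13082 did not). Benjamini-Hochberg adjustment covered all tested genes of each contrast, and the script was tested on simulated data. A log2 change on this scale understates changes of low values. Genes were grouped by sample label. Named genes are the 5 members, 6 partners, up to 3 genes per list, line and direction with the largest called changes, and the 3 nearest genes to each member. The members, the 12 gene lists and these rules were chosen with earlier results of these data known, and some genes of the oxidase and of these lists are not reported here. RefSeq promoters were searched on both strands, and transcripts of GENCODE 29 were cut into windows to find shared sequence. Alternatives were another pseudocount (0.1), no filter or 5 FPKM, rescaling, quantile normalization, a replicate block, each line alone, no trend, and each library left out.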

Additional observations from a re-analysis of the deposited data

Results flagged for a closer look

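A set of 64 genes, members included, was followed through the alternatives. Of these, 50 had a log2 response that differed between the lines by limma's test of that difference (Benjamini-Hochberg adjusted p under 0.05 over all tested genes, where 63.1% of genes were called). Other genes that the text names from its lists, such as CTSG, AZU1 and TKT, are outside this set, although these 3 were called as well. Many of the 64 were named for large called changes in 1 line or for a profile near a member in these same libraries. A high share was thus built into the choice and is not a result. Values are Kasumi-1 minus HL60, so a negative value is a less positive or more negative change in Kasumi-1. Among the 5 members it was -2.14 for CYBB, -2.86 for NCF1 and 0.92 for NCF4. For their partners it came to -0.68 for RAC1 and -0.97 for RAP1A, and for the copies of NCF1 to -2.39 for NCF1B and -2.45 for NCF1C. In the activation genes the difference was -1.81 for S100A8, -2.62 for S100A9, -1.88 for PIK3R5, 1.15 for PLCB2, 1.09 for PAK1 and -0.55 for PRKCB. Among the transcription factors it was -3.50 for FOS, -2.75 for JUN, -1.91 for IRF2, 2.14 for CEBPA, 1.10 for CEBPE and 1.19 for CEBPD. For the NADPH supply genes it came to -1.97 for ME1, -0.31 for PGD, 1.85 for IDH1 and 1.79 for PGLS. In the genes that remove superoxide and peroxide the difference was 1.87 for CAT, 0.97 for SOD1, 1.35 for PRDX2, 1.18 for PRDX4, -1.61 for GCLM and -0.58 for GSR. For the maturation and other markers it came to -3.44 for CD14, -3.37 for FPR1, -4.23 for C5AR1, 3.96 for MPO, 6.14 for PRTN3, -1.14 for NKG7, 2.42 for CD4, -0.44 for CD34 and 0.39 for KIT. CD34 and KIT were tested only through Kasumi-1. Other genes of this section were tested only through HL60, being under 1 FPKM in every Kasumi-1 library. Among them are CYBB, NCF1B, NCF1C, ME1, CD14, FPR1 and C5AR1, and CHI3L1, CAPG and CDA of the nearest genes. In the genes nearest to CYBB, CYBA, NCF1 and NCF4 the difference was -1.29 for CHI3L1, -2.47 for ALOX5AP, -1.30 for CAPG, -0.43 for MIB2, -0.54 for C10orf11, -0.56 for KIN, -2.28 for CDA, -2.15 for PADI4, -2.48 for TRIB1, 0.75 for RPL21P28, 0.76 for RPL21 and 0.75 for POLR3K. Some of these calls were lost when 1 library was left out (limma adjusted p = 0.0518 to 0.115). They were S100A8 without any HL60 library or treated Kasumi-1 replicate 1, and NKG7 without any HL60 or treated Kasumi-1 library. KIT lost it without any 1 of 6 libraries, all but untreated HL60 replicate 1 and untreated Kasumi-1 replicate 2. MIB2, C10orf11 and KIN lost it without untreated HL60 replicate 2, treated HL60 replicate 1, untreated Kasumi-1 replicate 1 or treated Kasumi-1 replicate 2, and MIB2 also without treated Kasumi-1 replicate 1. RPL21 lost it without untreated HL60 replicate 1, either treated HL60 library, untreated Kasumi-1 replicate 2 or treated Kasumi-1 replicate 1. Other alternatives ended some calls too. With a pseudocount of 0.1 the difference was -0.73 for S100A8 and -0.74 for NKG7 (limma adjusted p = 0.724 and 0.325). With quantile normalization it was 0.13 for RPL21, 0.24 for KIT, -0.98 for NKG7, -0.33 for MIB2 and -0.40 for C10orf11 (adjusted p = 0.32, 0.183, 0.0593, 0.0554 and 0.0645). With no filter on low values, S100A8, NKG7, RPL21 and KIT lost the call at unchanged sizes (0.0601, 0.0545, 0.0514 and 0.0605).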

How the results depend on the processing

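Over all alternatives, 389 of 410 values for the members kept their direction and their side of the threshold, 15 lost the call, 6 gained it and 0 reversed. The member counts in HL60 (5) and between the lines without drug (5) and with it (5) were the same under every alternative run. In Kasumi-1 the count of 3 went to 1 with no filter on low values and to 1 with each line fitted alone, and ranged from 1 to 3 when 1 library was left out; RAC2 was the call that stood in each of these fits. For the difference between the lines' responses the count of 3 ranged from 3 to 4 when 1 library was left out. A replicate block was tried as an alternative, since the labels number replicates without saying what a number shares. Same-numbered libraries deviated together across genes (r = 0.125 to 0.331 over the pairs of groups, and 0.267 to 0.480 without short RNAs and repeated symbols). With 2 replicate numbers and no label for what they share, the libraries were not treated as paired. With the replicate block the difference count went from 3 to 5, since CYBA and RAC2 were then called (limma adjusted p = 0.0107 and 0.0287), and the Kasumi-1 count from 3 to 4 with NCF4 (0.0273). Quantile normalization called the CYBA difference too (0.0471). Other scalings moved the median of all genes by under 0.1 on the log2 scale. For the other genes of the set of 64, 155 values lost a call, 38 gained one and 0 reversed. With 2 libraries a group and no read counts, differences in CYBB and NCF1 below 1 FPKM in Kasumi-1 are the least certain values given.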
